A study of Homo sapiens with 29 samples.

Results

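The genes described here are 7 ligands and 3 receptors of the epidermal growth factor (EGF) family: AREG, EREG, EPGN, HBEGF, TGFA, BTC and NRG1, and EGFR, ERBB2 and ERBB3. They were taken by name, and all 10 are among the 23710 gene symbols of the expression table. The study sequenced 27 RNA libraries, 3 for each of 9 groups. The 18 knockdown libraries came from 2 human lung carcinoma lines: H460 with hairpins against GFP (the control, shGFP), NRF2, NR0B1 or SNW1, sampled at 72 h, and H2122 with hairpins against GFP or NRF2, sampled at 24 h. The other 9 libraries were H460 kept for 12 h in the solvent DMSO or in BPK29 or BPK9, each at 30 µM and known here by code name. Both lines are established and carry mutations of KEAP1, which marks the transcription factor NRF2 for degradation. NR0B1 is an orphan nuclear receptor that represses other receptors, and SNW1 takes part in transcription and in the spliceosome. The labels do not say that the 3 libraries of a group are separate cultures, so every p-value reflects just the variation among libraries, which could be technical. In bulk RNA, fewer cells of a kind and less RNA per cell cannot be told apart.

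EGF family ligands are made as membrane-anchored precursors that proteases of the ADAM family cut free, and they then bind receptor tyrosine kinases of the ERBB family. EGFR binds EGF, TGFA, AREG, EPGN, EREG, BTC and HBEGF, and the last 3 of these also bind ERBB4. NRG1 binds ERBB3 and ERBB4. ERBB2 has no known ligand and works as a partner in receptor pairs, and ERBB3 has an impaired kinase and signals mainly through its partner. In lung epithelium and lung carcinoma this system drives the RAS and ERK pathway and the PI3K and AKT pathway.

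EPGN, EREG, AREG and BTC lie next to each other in this order on chromosome 4 in the RefSeq annotation of build GRCh38.p14. RefSeq promoter windows, from 250 bases before to 50 bases after a start, were found for 8 of the 10 genes. The 250 bases before the start of the first 3 of these neighbours are shown because EPGN and EREG fell in both lines after NRF2 knockdown. Capitals mark the TATA box letters TATAAA, which begin 29 bases before the start in EPGN and AREG and 32 bases before it in EREG.
EPGN, chr4:74308220-74308469, plus strand: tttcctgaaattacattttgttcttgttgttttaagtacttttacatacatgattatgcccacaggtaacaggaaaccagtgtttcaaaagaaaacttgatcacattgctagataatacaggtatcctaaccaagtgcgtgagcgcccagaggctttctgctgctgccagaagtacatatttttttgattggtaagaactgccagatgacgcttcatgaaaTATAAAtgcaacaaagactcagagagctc
EREG, chr4:74364895-74365144, plus strand: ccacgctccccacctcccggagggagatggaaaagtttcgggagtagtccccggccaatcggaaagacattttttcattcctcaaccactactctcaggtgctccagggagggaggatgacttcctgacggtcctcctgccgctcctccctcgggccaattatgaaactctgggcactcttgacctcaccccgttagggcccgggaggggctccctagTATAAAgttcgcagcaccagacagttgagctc
AREG, chr4:74444886-74445135, plus strand: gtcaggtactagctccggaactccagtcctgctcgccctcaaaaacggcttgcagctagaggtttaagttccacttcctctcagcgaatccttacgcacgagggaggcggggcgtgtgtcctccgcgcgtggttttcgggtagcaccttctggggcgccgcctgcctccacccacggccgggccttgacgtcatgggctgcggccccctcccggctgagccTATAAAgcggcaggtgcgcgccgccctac
TATAAA, searched on both strands, was in 11.5% of all 35116 windows and in 4 of the 10 windows of these genes (EGFR and TGFA have 2 windows each). The 4 were those of EPGN, EREG and AREG and 1 of the windows of EGFR. The core of the antioxidant response element bound by NRF2 (TGACNNNGC, both strands) was in 13.3% of all windows and in 0 of the 10. The AP-1 element TGANTCA was in 7.71% of all windows, in ERBB2 and in 1 window of EGFR. The nuclear receptor motif AGGTCA was in 13.8% of all windows, in EREG and in HBEGF. The EGFR matches all lie in 1 of its windows, which begins at 55109589 on chromosome 7. Which EGFR start these lines use was not examined. All matches describe letters in short windows, not binding.

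Levels are the authors' FPKM, a read count scaled by gene length and library depth. Comparisons between genes within the knockdown libraries, with the shares and sums below, rest on the gene lengths the authors used, which are not given. Changes are log2 fold changes of FPKM + 1, with the standard error (SE) over 3 against 3 libraries. They were tested with limma over every gene that reached 1 FPKM in 3 or more of the fitted libraries, and calls were made where the Benjamini-Hochberg adjusted p was under 0.05. Between 16709850 and 24613404 reads were recovered for a knockdown library and between 19077517 and 24824508 for a compound library. The targeted transcripts fell in their own knockdowns: NFE2L2, which encodes NRF2, by 1.11 on the log2 scale in H2122 and by 0.67 in H460, NR0B1 by 1.34 and SNW1 by 0.65. NR0B1 also fell after NRF2 knockdown, by 3.32 in H2122 and by 2.27 in H460. Of 9 lung epithelial and carcinoma markers, H2122 shGFP held 6 at a mean of 1 FPKM or more and H460 shGFP 4. EPCAM averaged 333 FPKM in H2122 shGFP and 0.888 in H460 shGFP, CDH1 averaged 75.7 and 0.00957, and KRT8 averaged 599 and 532. NKX2-1 and SFTPC were at 0 in the shGFP libraries of both lines. The H460 shGFP library of replicate 3, a control of every H460 knockdown, stood apart from its group: chi-square per degree of freedom was 6.35 and 4.96 against the other two and 1.28 to 2.64 in the other 25 pairs of libraries within groups. Leaving it out moved the log2 change of each tested gene of the 10 by at most 0.07 in the H460 knockdowns and changed 1 call, that of NRG1 after SNW1 knockdown.

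The control cells of the 2 lines, sampled at 72 h in H460 and 24 h in H2122, differed in their ligand transcripts. In H460 shGFP, EPGN stood at 97.4, 92.3 and 90.2 FPKM and made up 91.95% ± 0.287 (SD, n = 3) of the summed FPKM of the 7 ligands. Among these 7, NRG1 followed at 3.62, 3.71 and 3.24 FPKM and HBEGF at 3.46, 3.65 and 3.83 FPKM. Outside the 7, EGF averaged 8.06 FPKM and NRG4 6.35 in H460 shGFP, above both, and neither is in the sum. EREG, TGFA, BTC and AREG were each under 1 FPKM in all 12 H460 knockdown libraries. In H2122 shGFP, EPGN was again the highest ligand at 69.0, 71.1 and 70.3 FPKM, but it made up only 41.5% ± 0.491 (SD, n = 3) of the sum. EREG at 49.7, 52.6 and 49.3 FPKM and TGFA at 27.8, 29.7 and 29.1 FPKM came next in H2122. HBEGF followed among the 7 at 11.0, 12.7 and 12.6 FPKM, while NRG4, outside them, averaged 16.2 FPKM and EGF 3.87. Of the receptors, ERBB2 was the highest in both controls, with a mean of 9.35 ± 0.89 FPKM in H460 and 25.2 ± 0.28 in H2122 (SD, n = 3 each). This order depends on the gene lengths. In the compound libraries, which rest on other lengths, EGFR averaged 77.8 FPKM in H460 DMSO and ERBB2 29.6. ERBB3 was at 23.2, 24.4 and 22.9 FPKM in H2122 shGFP but at 0.262, 0.195 and 0.338 FPKM in H460 shGFP, where 25 to 39 reads carry each value.

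**Figure D1:**
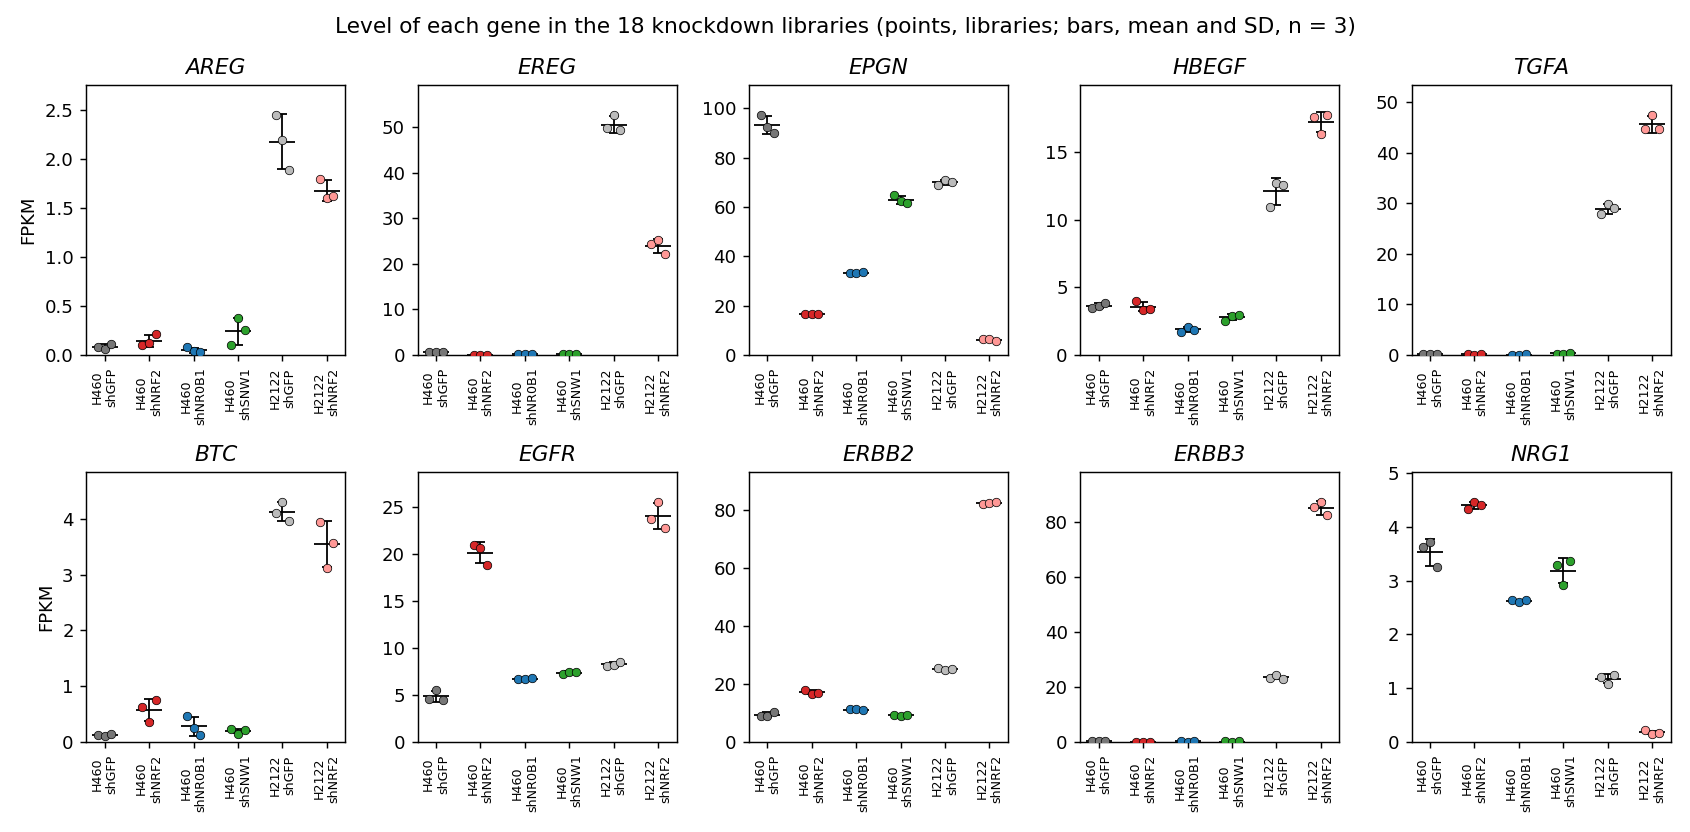
FPKM (vertical axis, linear from 0, a separate scale in each panel) of the 10 genes in the 18 knockdown libraries, by line and hairpin. Points are libraries, and bars are the mean and SD of 3 libraries. EPGN is lower in every knockdown group than in the shGFP group of its line, EGFR is higher, and EREG, TGFA and ERBB3 stand near 0 in H460.

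NRF2 knockdown in H2122 lowered EPGN and EREG and raised all 3 receptors. All 10 genes were tested and all were called, 5 higher (EGFR, ERBB2, ERBB3, TGFA and HBEGF) and 5 lower (EPGN, EREG, NRG1, AREG and BTC). Calls were common in this comparison, with 48.8% of the 11710 genes tested higher and 38.5% lower (5715 and 4513, or 4708 and 5368 with median-ratio scaling over these 6 libraries). NRG1 reached the minimum level only through shGFP, where it is higher, so its call carries no weight in this count. Of the 10, 3 were called higher and 2 lower at 2 fold or more, against 8.92% and 9.2% of all genes tested. The median absolute log2 change was 0.97 over the 10 genes and 0.49 over all genes tested. The median signed change was 0.15 over the 10 genes and 0.09 over all genes tested.

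Among the ligands, EPGN fell from 69.0, 71.1 and 70.3 FPKM in H2122 shGFP to 6.46, 6.61 and 5.82 in shNRF2. The shNRF2 libraries lay far below every control library, and the log2 change was -3.29 ± 0.0424 (SE, limma adjusted p = 1.95e-11). EREG fell from 49.7, 52.6 and 49.3 FPKM to 24.3, 25.3 and 22.2, a log2 change of -1.05 ± 0.0466 (SE, limma adjusted p = 1.83e-08). NRG1, the ligand of ERBB3, fell from 1.21, 1.07 and 1.24 FPKM to 0.212, 0.142 and 0.168, and its groups did not overlap. These levels are low, so its log2 change of -0.89 on the FPKM + 1 scale was -2.73 ± 0.176 (SE) with limma's voom on the recovered reads, which adds a smaller constant.
TGFA, a high-affinity EGFR ligand, rose from 27.8, 29.7 and 29.1 FPKM to 44.6, 47.4 and 44.6 (log2 change 0.64 ± 0.035, SE, limma adjusted p = 7.98e-08). HBEGF, the heparin-binding member, rose from 11.0, 12.7 and 12.6 FPKM to 17.5, 16.4 and 17.7 (log2 change 0.48 ± 0.0565, SE, limma adjusted p = 2.52e-05). The changes of AREG and BTC were smaller. AREG went from a mean of 2.18 ± 0.28 to 1.67 ± 0.11 FPKM (SD, n = 3 each; limma adjusted p = 0.0107). BTC went from 4.13 ± 0.17 to 3.55 ± 0.42 FPKM (SD, n = 3 each; limma adjusted p = 0.0369). The call of BTC was lost in 4 of the 6 fits that left out 1 library, namely shGFP replicate 1 (adjusted p = 0.0712), shGFP replicate 2 (0.109), shNRF2 replicate 2 (0.125) or shNRF2 replicate 3 (0.0622), and it was lost with voom (0.128).

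The receptors rose together in H2122. ERBB3 went from 23.2, 24.4 and 22.9 FPKM with shGFP to 85.3, 87.3 and 82.3 with shNRF2, a log2 change of 1.81 ± 0.033 (SE, limma adjusted p = 7.47e-11). ERBB2 stood at 25.5, 24.9 and 25.3 FPKM and then at 82.0, 82.5 and 82.9, a log2 change of 1.67 ± 0.0227 (SE, limma adjusted p = 2.26e-11). EGFR stood at 8.01, 8.21 and 8.52 FPKM and then at 23.7, 25.5 and 22.8, a log2 change of 1.43 ± 0.0455 (SE, limma adjusted p = 1.91e-09). For each receptor, all 3 shNRF2 libraries lay above all 3 control libraries. The summed FPKM of the 3 receptors went from 57.0 ± 0.518 to 191 ± 3.7, while that of the 7 ligands went from 169 ± 4.3 to 98.4 ± 2.42 (SD, n = 3 each). EPGN supplied 6.4% ± 0.278 of the ligand sum after the knockdown and TGFA 46.3% ± 1.07 (SD, n = 3), so the order of these ligands was reversed.
Markers of other cells also moved in H2122. The summed FPKM of 7 immune cell markers was 46.2 to 47.5 in shGFP and 105 to 109 in shNRF2, with LYZ at means of 0.359 and 5.16 FPKM, CD79A at 0.327 and 4.61, and CD68, the largest of them, at 45.5 and 96.5. CD3E was at 0 in both groups. The summed FPKM of 9 lung epithelial and carcinoma markers was 4425 to 4485 in shGFP and 6505 to 6796 in shNRF2. Of the 6 tested 4 rose, led by KRT19 (1.31) and CDH1 (0.79), EPCAM fell (-0.20) and KRT18 was not called. The sum of 7 fibroblast and endothelial markers was 10.4 to 11.3 in shGFP and 14.8 to 15.2 in shNRF2, and the 1 tested, COL1A1, rose by 0.47. The part of these markers in the changes above was not tested.

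In H460, NRF2 knockdown again lowered EPGN and raised EGFR and ERBB2. Only 5 of the 10 genes reached the minimum level in H460 (EPGN, HBEGF, NRG1, EGFR and ERBB2). Of these, 3 were called higher (EGFR, ERBB2 and NRG1) and 1 lower (EPGN), where 40.9% of the 11938 genes tested were higher and 39% lower. At 2 fold or more, 1 was higher and 1 lower, against 6.16% and 5.57% of all genes tested. EPGN fell from 97.4, 92.3 and 90.2 FPKM in shGFP to 16.8, 16.6 and 16.7 in shNRF2, a log2 change of -2.41 ± 0.0339 (SE, limma adjusted p = 5.47e-15). EGFR rose from 4.55, 5.50 and 4.43 FPKM to 20.9, 20.6 and 18.8, a log2 change of 1.86 ± 0.0618 (SE, limma adjusted p = 5.67e-12). Neither gene's groups overlapped.
ERBB2 rose from 8.85, 8.83 and 10.4 FPKM to 17.8, 16.6 and 16.8 (log2 change 0.81 ± 0.0535, SE, limma adjusted p = 6.25e-09). NRG1, which fell in H2122, rose in H460 from 3.62, 3.71 and 3.24 FPKM to 4.33, 4.47 and 4.40 (log2 change 0.26 ± 0.0549, SE, limma adjusted p = 0.0007). HBEGF was not called: its shGFP libraries held 3.46, 3.65 and 3.83 FPKM and its shNRF2 libraries 3.98, 3.36 and 3.39, with overlapping groups and a 95% interval of the log2 change from -0.17 to 0.13.
The summed FPKM of the 7 ligands was 101 ± 3.72 in H460 shGFP and 25.6 ± 0.513 in shNRF2, and that of the 3 receptors was 14.4 ± 0.745 and 37.3 ± 1.62 (SD, n = 3 each). As in H2122, transcripts of these 7 ligands summed to less and those of the 3 receptors to more after the knockdown. In H460 the ligand sum fell through EPGN, whose mean was 93.3 FPKM in shGFP and 16.7 in shNRF2. NRG1 rose, HBEGF was not called, and EREG, TGFA, BTC and AREG were each under 1 FPKM. In H460, the summed FPKM of 7 fibroblast and endothelial markers was 15.5 to 16.3 in shGFP and 35.7 to 38.1 in shNRF2. Of the 4 tested, DCN rose by 2.66 and LUM by 1.33 on the log2 scale, COL3A1 fell by 0.68 and COL1A1 was not called (log2 change -0.08), with CDH5 at 0 in both groups. The sum of 9 lung epithelial and carcinoma markers was 1978 to 2257 and 2060 to 2173, and of the 5 tested 4 fell, led by KRT18 (-1.09) and KRT7 (-0.88), and KRT19 rose (0.53). Of 2 immune cell markers tested, CD14 rose by 0.49 and CD68 fell by 0.21. The part of these markers in the changes was not tested.

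The 5 genes under the minimum level in H460 were described from the recovered reads. EREG had 77, 57 and 47 reads in the shGFP libraries, 4, 4 and 3 in shNRF2, 27, 33 and 32 in shNR0B1, and 21, 26 and 17 in shSNW1. Every knockdown library therefore had fewer EREG reads than every control library, and limma's voom gave log2 changes of -3.61 ± 0.347 after NRF2 knockdown, -0.95 ± 0.19 after NR0B1 knockdown and -1.32 ± 0.212 after SNW1 knockdown (SE, adjusted p = 1.22e-12, 2.65e-05 and 6.69e-07). BTC had 4, 3 and 3 reads in shGFP and 13, 8 and 17 in shNRF2 (voom log2 change 1.99 ± 0.444, SE, adjusted p = 0.0001). The voom test required 10 reads in 3 libraries. BTC met this only through shNRF2 replicates 1 and 3 and shNR0B1 replicate 1, where it was high, so its call carries no weight. ERBB3 had 39, 25 and 36 reads in shGFP and 11, 12 and 8 in shNRF2 (voom log2 change -1.37 ± 0.327, SE, adjusted p = 0.000242), so it moved against its rise in H2122, at a level near the limit of these libraries. ERBB3 also fell after SNW1 knockdown (voom log2 change -1.19 ± 0.311, SE, adjusted p = 0.000882). TGFA had 16, 13 and 11 reads in shGFP and 25, 24 and 31 in shSNW1 (voom log2 change 1.12 ± 0.291, SE, adjusted p = 0.000868). AREG had 2 to 19 reads in the 12 libraries and was too low for this test as well.

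NR0B1 knockdown in H460 lowered 3 of the 5 tested genes (EPGN, HBEGF and NRG1) and raised 2 (EGFR and ERBB2), where 36.8% of all genes tested were lower and 33.1% higher (4391 and 3946, or 3575 and 4798 at a common total of reads). EPGN, the 1 called lower at 2 fold or more against 1.41% of all genes tested, fell to 33.1, 33.2 and 33.7 FPKM (log2 change -1.46 ± 0.0339, SE, limma adjusted p = 1.37e-12). None of the 5 was higher at 2 fold or more, as were 1.46% of all genes tested. HBEGF fell to 1.73, 2.08 and 1.86 FPKM, below every control library (log2 change -0.69 ± 0.0696, SE, limma adjusted p = 1.16e-06). NRG1 fell to 2.63, 2.60 and 2.63 FPKM, against its rise after NRF2 knockdown (log2 change -0.32 ± 0.0549, SE, limma adjusted p = 0.00015). EGFR stood at 6.70, 6.65 and 6.73 FPKM (log2 change 0.40 ± 0.0618, SE, limma adjusted p = 5.51e-05) and ERBB2 at 11.2, 11.2 and 11.0 (0.23 ± 0.0535, SE, limma adjusted p = 0.00164). Both receptors thus rose by less than after NRF2 knockdown, as tested below. The summed FPKM of the lung epithelial and carcinoma markers was 1978 to 2257 in shGFP and 1203 to 1229 in shNR0B1, with 3 of 5 called lower (KRT18 by 1.04 on the log2 scale) and 1 higher. That of the fibroblast and endothelial markers was 15.5 to 16.3 and 22.3 to 23.7, with 3 of 4 called higher (COL1A1 by 1.30) and 1 lower, and CDH5 at 0 in both groups. The sum of 7 immune cell markers was 29.1 to 33.1 and 34.6 to 38.5, with CD14 up by 0.88. The part of these markers in the changes was not tested.

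SNW1 knockdown lowered EPGN and HBEGF and raised EGFR. Of the 5 tested genes 2 were called lower, where 36.4% of all genes tested were, and 1 higher, where 30.8% were (3671 higher and 4349 lower in all, or 4591 and 3528 with libraries scaled to a common total). None reached 2 fold, against 1.15% lower and 1.24% higher of all genes tested. EPGN stood at 64.9, 62.4 and 61.9 FPKM (log2 change -0.56 ± 0.0339, SE, limma adjusted p = 9.2e-09). EGFR stood at 7.22, 7.43 and 7.42 FPKM (log2 change 0.52 ± 0.0618, SE, limma adjusted p = 5.43e-06). HBEGF stood at 2.53, 2.89 and 2.95 FPKM (log2 change -0.30 ± 0.0696, SE, limma adjusted p = 0.00201). ERBB2 at 9.20, 8.89 and 9.24 FPKM overlapped its controls (limma adjusted p = 0.619; 95% interval of the log2 change -0.15 to 0.08). NRG1 overlapped them as well (adjusted p = 0.0843), but it was called lower without shGFP replicate 3 (adjusted p = 0.0222). Of 5 epithelial markers 3 were lower (KRT18 by 0.72 on the log2 scale) and 2 higher, with sums of 1978 to 2257 FPKM in shGFP and 1888 to 1947 in shSNW1. Of 4 fibroblast and endothelial markers 1 was lower. Of 2 immune cell markers tested, CD14 fell by 0.82, and CD68 was not called (means of 25.2 FPKM in shGFP and 26.5 in shSNW1). At a common total 1 of these 2 was called higher and 1 lower. The part of all these markers in the changes was not tested.

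**Figure D2:**
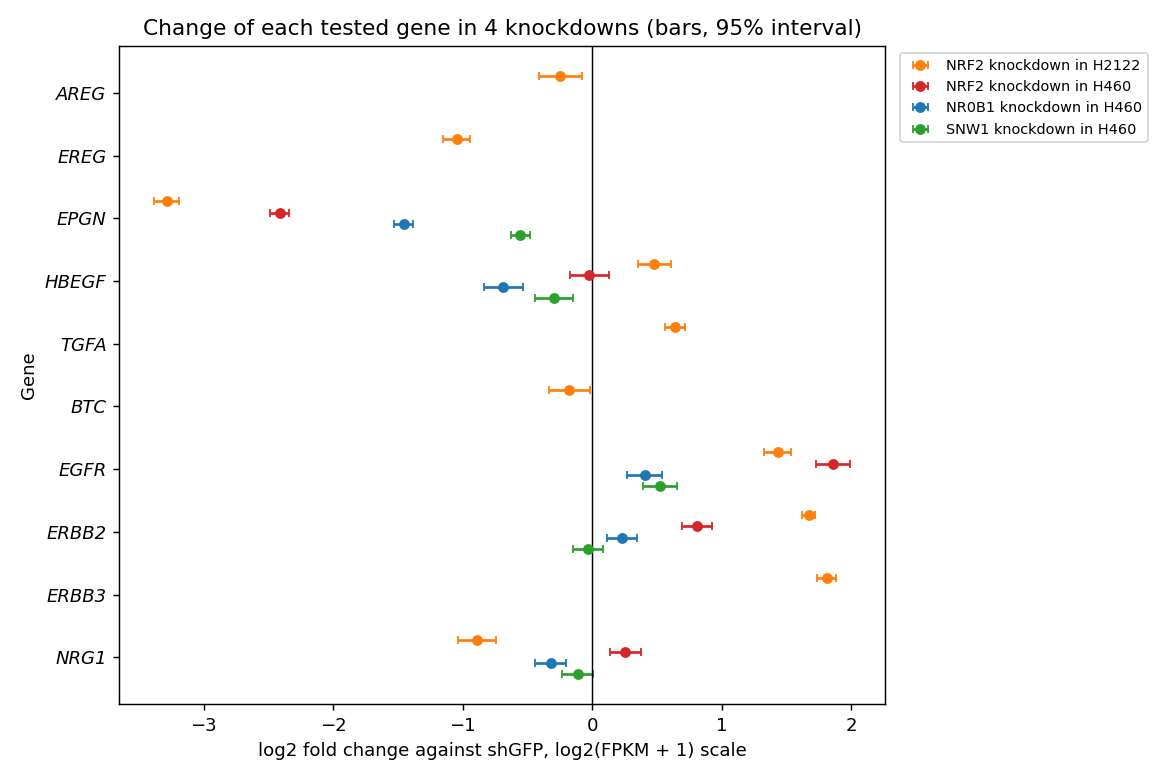
Log2 fold change against the shGFP libraries of the same line (horizontal axis, FPKM + 1 scale) for each tested gene in the 4 knockdowns, with 95% intervals. EPGN lies left of 0 in all 4, from -3.29 to -0.56, and EGFR lies right of 0 in all 4, from 0.40 to 1.86. A gene with a single point was under the minimum level in H460.

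The 3 knockdowns of H460 share their shGFP libraries, so they were compared directly with each other. Between NRF2 and NR0B1 knockdown, 4 of the 5 genes were higher after NRF2 knockdown and 1, EPGN, was lower, where 37.8% of all genes tested were higher and 36.7% lower (4511 and 4378, or 3511 and 5461 at a common total). EPGN was lower after NRF2 knockdown by 0.96 on the log2 scale. EGFR was higher by 1.46, HBEGF by 0.66, ERBB2 by 0.58 and NRG1 by 0.58. Between NRF2 and SNW1 knockdown the same genes were higher (4) and lower (1), where 39.6% and 39.1% of all genes tested were (4728 and 4669, or 3913 and 5578 at a common total). EGFR was higher by 1.34 and EPGN lower, with a log2 difference of -1.86. Between NR0B1 and SNW1 knockdown, ERBB2 was the 1 gene called higher after NR0B1 knockdown and 3 were lower (EPGN, HBEGF and NRG1), where 34.7% and 33.1% of all genes tested were. EPGN differed by -0.90 and HBEGF by -0.39 on the log2 scale. EGFR was not called in that comparison (log2 difference -0.12, 95% interval -0.25 to 0.01, limma adjusted p = 0.102), but with voom it was (adjusted p = 0.035).
By mean level the order of EPGN over the 6 knockdown groups was H460 shGFP, H2122 shGFP, H460 shSNW1, H460 shNR0B1, H460 shNRF2 and H2122 shNRF2, and no neighbours in that order overlapped. The order of EGFR was H2122 shNRF2, H460 shNRF2, H2122 shGFP, H460 shSNW1, H460 shNR0B1 and H460 shGFP, again with no overlap between neighbours. For ERBB2 the order was H2122 shNRF2, H2122 shGFP, H460 shNRF2, H460 shNR0B1, H460 shGFP and H460 shSNW1, and only the last 2 overlapped.

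**Figure D3:**
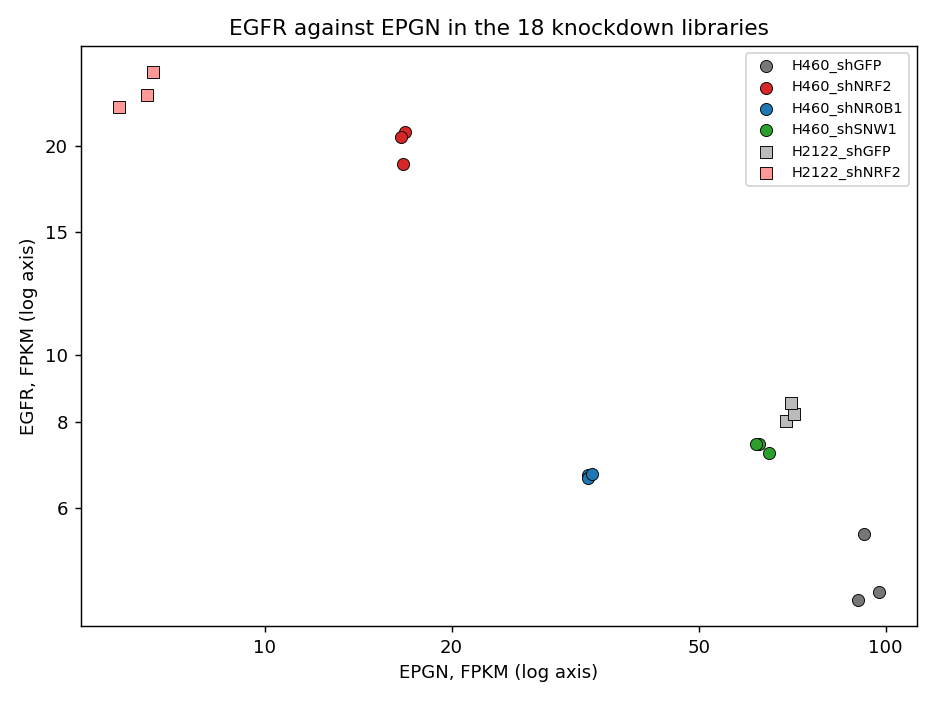
EGFR against EPGN, both in FPKM on log axes, in the 18 knockdown libraries (circles H460, squares H2122; 1 point per library, coloured by hairpin). The NRF2 knockdown libraries of both lines hold EPGN at or below 16.8 FPKM and EGFR at or above 18.8 FPKM, and the H460 shGFP libraries lie at the opposite corner.

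Whether NRF2 knockdown acted differently in H2122 and H460 was tested with an interaction term. In it, line, time (24 h in H2122, 72 h in H460) and depth of knockdown cannot be told apart. NFE2L2 fell by 1.11 on the log2 scale in H2122 and by 0.67 in H460. On the FPKM + 1 scale all 10 genes were called, 4 with a more positive change in H2122 and 6 with a more negative one, where 37.4% and 34.3% of the 12798 genes tested were. For AREG, EREG, TGFA, BTC and ERBB3 this count says little: they reached the minimum level only through H2122. Under 1 FPKM in H460 the added constant pulls their change toward 0. Without a filter, the H460 change on this scale was -0.63 for EREG and 0.48 for BTC. With voom, which adds a smaller constant that still matters at a few reads, 5 were called positive and 4 negative. The size of these differences and of that of NRG1 depended on the scale, and so did the count at 2 fold or more, which was 1 and 1 on the FPKM + 1 scale, against 5.77% and 4.98% of all genes tested. ERBB3 differed by 2.01 ± 0.0679 on the log2 scale (SE, limma adjusted p = 4.93e-11) and by 3.24 ± 0.306 (SE) with voom. ERBB2 rose by more in H2122 (difference 0.86 ± 0.0711, SE) and EGFR by more in H460 (difference -0.43 ± 0.095, SE, limma adjusted p = 0.00129). EPGN fell by more in H2122 (difference -0.87 ± 0.0591, SE), and NRG1 moved in opposite directions (difference -1.15 ± 0.0737, SE, limma adjusted p = 1.95e-08), by -3.003 with voom. The difference of BTC was -0.66 and with voom -2.18, that of AREG -0.32 and with voom -1.01, where it was no longer called (adjusted p = 0.0553), and that of TGFA 0.67 and with voom 1.04. For EREG the sign of the difference depended on the scale: it was -0.41 ± 0.0714 (SE) on the FPKM + 1 scale, where H460 holds under 1 FPKM, 1.22 with a constant of 0.1 FPKM and 2.55 ± 0.384 (SE) with voom. By the ratio of levels, EREG therefore fell further in H460.

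In the 9 compound libraries the gene lengths behind the FPKM values differ from those in the knockdown libraries, for EGFR by a factor of 0.0742, so levels there are given as RPM (reads scaled to a common library total). The changes are again limma's on FPKM + 1 with the authors' scaling, and they differ from the ratios of those RPM values: with voom, which scales to the total, the change after BPK29 was 0.20 for EPGN, -0.28 for EGFR, -0.19 for ERBB2 and -0.25 for NRG1. After BPK29, EGFR, ERBB2 and NRG1 fell and EPGN rose slightly. Of the 7 genes tested 3 were lower and 1 higher, where 29.3% and 21.1% of the 11461 genes tested were (3359 and 2418, or 2313 and 3645 at a common total, under which these 4 genes and ERBB3 were called). EGFR was at 36.3, 37.3 and 39.2 RPM in DMSO, 31.8, 30.0 and 31.1 in BPK29 and 37.0, 34.7 and 37.5 in BPK9, with BPK29 below all other libraries (log2 change against DMSO -0.34 ± 0.0395, SE, limma adjusted p = 9.24e-05). NRG1 was at 26.6, 28.9 and 26.1 RPM in DMSO, 23.7, 22.2 and 22.8 in BPK29 and 29.5, 26.9 and 26.2 in BPK9 (log2 change of BPK29 -0.30 ± 0.0508, SE, limma adjusted p = 0.000934).
ERBB2 was at 62.7, 62.1 and 63.6 RPM in DMSO and 56.6, 53.4 and 54.5 in BPK29 (log2 change -0.25 ± 0.0349, SE, limma adjusted p = 0.000283). EPGN was at 309, 322 and 311 RPM in DMSO and 353, 374 and 356 in BPK29 (log2 change 0.14 ± 0.0284, SE, limma adjusted p = 0.00307). The direction of EPGN after BPK29 was opposite to that in the NR0B1 knockdown, which was sampled at another time. HBEGF was not called (95% interval of the log2 change -0.14 to 0.17). TGFA, with 9 to 17 reads per library, and ERBB3, with 18 to 35, passed the minimum level only through the short lengths behind their compound values, and neither was called (95% intervals -0.22 to 0.27 and 0.01 to 0.41). The summed FPKM of the lung epithelial and carcinoma markers was 689 to 699 in DMSO and 574 to 583 in BPK29, with 4 of 4 tested called lower (KRT19 by 0.36 on the log2 scale). That of the fibroblast and endothelial markers was 113 to 125 and 73.9 to 82.4, with 1 of 4 called lower (COL3A1 by 0.74) and CDH5 at 0 in both groups. Of 2 immune cell markers tested, CD14 fell by 0.42, and CD68 was not called (means of 22.9 FPKM in DMSO and 24.1 in BPK29). At a common total 1 of these 2 was called higher and 1 lower. The part of these markers in the changes was not tested.
After BPK9, limma called 0 of the 7 genes in either direction, where it called 0% of all genes tested higher and 0.00873% lower. None of the 7 had an unadjusted p under 0.05, and voom called 0 of the 8 it tested. The 95% intervals of the log2 change reached from -0.15 to 0.03 for EGFR and from -0.07 to 0.06 for EPGN. BPK29 and BPK9 were used at the same dose and time, so they were also compared directly, as 1 pair with p adjusted over all genes tested. Again 3 of the 7 genes were lower and 1 higher after BPK29, where 27.2% and 19.7% of all genes tested were (3121 and 2258, or 2290 and 3295 at a common total). The log2 difference was -0.28 ± 0.0395 for EGFR, -0.19 ± 0.0349 for ERBB2, -0.30 ± 0.0508 for NRG1 and 0.14 ± 0.0284 for EPGN (SE, limma adjusted p = 0.000385, 0.00149, 0.00102 and 0.00257).

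**Figure D4:**
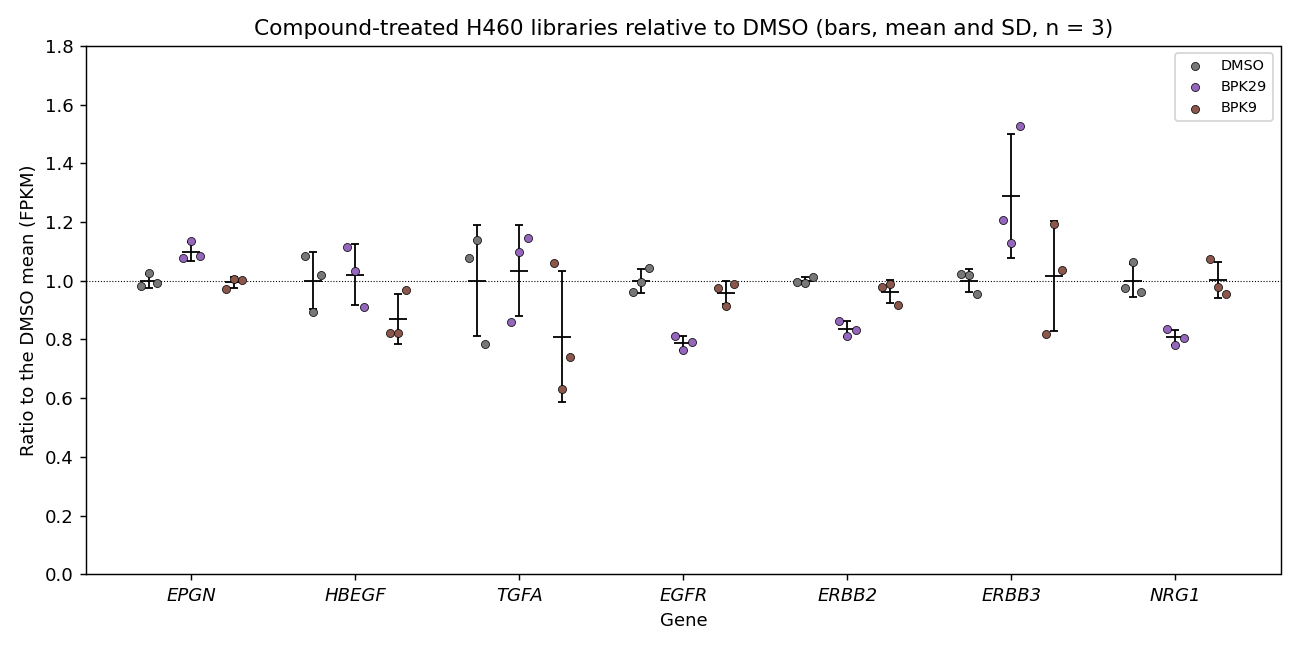
Ratio of each compound or DMSO library to the mean of the 3 DMSO libraries (vertical axis, from FPKM; dotted line at 1) for the 7 genes tested. Points are libraries, and bars are the mean and SD of 3. The BPK29 points of EGFR lie between 0.763 and 0.811 and those of EPGN between 1.08 and 1.14, and the BPK9 points of EGFR lie between 0.914 and 0.988.

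Other genes of the pathway were taken from lists chosen by function. Their counts stand beside the shares of all genes tested that were called higher and lower. These were 48.8% and 38.5% after NRF2 knockdown in H2122 and 40.9% and 39% in H460. They were 33.1% and 36.8% after NR0B1 knockdown and 30.8% and 36.4% after SNW1 knockdown. Of the 5 other family genes, EGF, NRG2, NRG3, NRG4 and ERBB4, 2 were tested in H2122 and 3 in H460. EGF, the founding ligand, rose after NRF2 knockdown in both lines (log2 change 0.23 in H2122 and 0.59 in H460) and after NR0B1 knockdown (0.49), and fell after SNW1 knockdown by 0.54. Its call in H2122 was lost with median-ratio scaling over the 6 libraries (log2 change 0.10, limma adjusted p = 0.125; 3.74e-05 to 0.0141 under the other alternatives in which it was tested). NRG4, a ligand of ERBB4, fell by 1.03 after NRF2 knockdown in H460, rose by 0.31 after NR0B1 knockdown and was not called in H2122.
Of the genes that cut or carry ligand precursors, 4 of the 8 tested in H2122 rose after NRF2 knockdown and 4 fell. RHBDL2, a rhomboid protease, rose by 1.49 and RHBDF1, an inactive rhomboid that guides ADAM17, by 1.24. ADAM17 itself fell in both lines, by 0.71 in H2122 and by 0.38 in H460. In H460, 4 of 7 rose and 3 fell, led by ADAM10, a sheddase of EGF and BTC, at 1.46 and RHBDF1 at 0.86. After NR0B1 knockdown 4 rose and 0 fell (6 and 0 with libraries scaled to a common total), and after SNW1 knockdown 3 rose and 4 fell, ADAM9 by 0.68.
Of 13 genes of receptor turnover and feedback, 8 rose and 3 fell in H2122, with CBLB, a ubiquitin ligase, up by 1.04 and SH3KBP1, an endocytic adaptor, down (log2 change -1.01). In H460, 6 of 12 rose and 6 fell after NRF2 knockdown, CBLB again by 1.10, 2 rose and 6 fell after NR0B1 knockdown (4 and 4 at a common total), and 2 rose and 4 fell after SNW1 knockdown (4 and 4).

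Of 24 adaptors and kinases downstream of the receptors, 14 rose and 2 fell in H2122, led by SOS2, a RAS exchange factor (log2 change 1.48), and PIK3CA (0.80). In H460, 14 rose and 5 fell after NRF2 knockdown, led by PIK3R1 at 1.64 and HRAS at 1.11. After NR0B1 knockdown 8 rose and 11 fell (8 and 6 at a common total), and after SNW1 knockdown 11 rose and 5 fell (14 and 5).
Transcripts that ERK signalling induces did not go 1 way. In H2122, 11 of 16 rose after NRF2 knockdown and 4 fell, with DUSP6, an ERK phosphatase, up by 2.06 and PHLDA1 by 2.05 (median of the list 0.64, of all genes tested 0.09). In H460, 6 rose and 9 fell after the same knockdown, with FOSL1, an AP-1 subunit, at a log2 change of -1.94 and DUSP5, a nuclear ERK phosphatase, at -1.67 (median -0.23, of all genes tested 0.01). The genes named here did not all differ between the lines. FOSL1 also fell in H2122 (-1.97), and DUSP6 (1.08) and PHLDA1 (0.54) also rose in H460, but DUSP5 rose in H2122 (0.55). After NR0B1 knockdown 2 rose and 11 fell, DUSP6 by 1.00 on the log2 scale and FOSL1 by 0.77 (median -0.29, of all genes tested -0.02). After SNW1 knockdown 7 rose and 5 fell, with EGR1, an immediate early factor, up by 2.58 and PHLDA1 by 1.26. After BPK29, 8 of 15 rose and 3 fell, where 21.1% and 29.3% of all genes tested were called, with EGR1 up by 0.66 and DUSP6 down (log2 change -0.60), and after BPK9 limma called 0 of 15, voom 1. The counts in each list stand beside backgrounds of 30.8% to 48.8% of all genes tested in 1 direction in the knockdowns.

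For EPGN, EGFR and ERBB2, the genes with the most similar changes over the 4 knockdowns were sought among 9279 genes tested in both lines. Likeness was the root mean square difference of the 4 log2 changes, of which those in H460 share controls. The gene nearest to EPGN was NR0B1 (0.451), whose own hairpin is 1 of the 4 knockdowns. NR0B1 changed by -3.32, -2.27 and -1.34 where EPGN changed by -3.29, -2.41 and -1.46, but after SNW1 knockdown it rose by 0.33 where EPGN fell by 0.56. POLR3G (0.466) and CDKN3 (0.491) came next. The genes nearest to EGFR were ERLEC1 (0.0967), IDUA (0.152) and TK2 (0.183). Those nearest to ERBB2 were PCMTD1 (0.0664), FOXC1 (0.0989) and RGL3 (0.105).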

How the data were processed

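Values are FPKM (fragments scaled by transcript length and library depth) that the authors deposited for 23710 gene symbols in 27 RNA libraries; per the labels' protocols, libraries were made with a TruSeq kit. The submitters' processing notes name STAR, featureCounts, DESeq2, Bowtie2, HOMER and hg19, without versions; for gene lengths and strand the value is "not given in the sources used here". The steps of the FPKM values gave whole reads (tolerance 0.02) for 99.95% of genes reaching 1 FPKM in the knockdown columns and 99.97% in the compound columns. The knockdown columns followed median-ratio scaling, and the compound columns rest on other gene lengths (over 2 fold apart for 54.3% of 16592 genes). Replicate libraries differed by more than counting noise in all 27 pairs within groups (chi-square per degree of freedom 1.28 to 6.35).

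Comparisons used limma 3.58.1 in R 4.3.3 on log2(FPKM + 1) with a variance trend, over genes at 1 FPKM or more in at least 3 libraries, adjusted by Benjamini-Hochberg. The 12 H460 knockdown libraries, the 6 H2122 libraries and the 9 compound libraries were fitted separately, and the interaction used 12 libraries. On simulated data, 2-fold changes were found for 99% of 100 changed genes among 11499 in the H2122 comparison and for 82.7% of 98 among 12222 in the interaction; 1.5-fold changes were found for 64.9% of 97 and 23.5% of 98. Alternatives changed the constant, filter, scaling, test, variance model, block and libraries. The genes and lists were chosen with earlier results of these data known. All 10 genes are named, with the called genes of largest change in each list, at most 2 per comparison with a control. ADAM17 is named beyond these because RHBDF1 guides it. Likeness was sought for called members of at least 2 fold that had a mean of at least 5 FPKM in a group. These were also tested in both lines, and the 3 genes most like each are named. NR0B1 peaks were not analysed here.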

Additional observations from a re-analysis of the deposited data

Results flagged for a closer look

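On the FPKM + 1 scale, the change after NRF2 knockdown differed between H2122 and H460 for all 10 genes by limma's interaction term (adjusted p under 0.05). In this term line, time and depth of knockdown cannot be told apart. With voom 9 were called. The differences, H2122 minus H460 on the log2 scale of FPKM + 1, were positive for 4 genes: ERBB3 (2.01), ERBB2 (0.86), TGFA (0.67) and HBEGF (0.50). They were negative for NRG1 (-1.15), EPGN (-0.87), BTC (-0.66), EGFR (-0.43), EREG (-0.41) and AREG (-0.32). The negative value of EREG became positive on a scale nearer to the ratio of levels, and the difference of AREG was not called with voom (adjusted p = 0.0553). AREG, EREG, TGFA, BTC and ERBB3 stood under 1 FPKM in every H460 library of this test, where the added constant pulls their change toward 0. With voom the differences were 3.24 for ERBB3, 1.04 for TGFA, -2.18 for BTC and -3.003 for NRG1. No test for a single outlying value was applied to groups of 3 libraries; each library was left out in turn instead.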

How the results depend on the processing

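The number of the 10 genes called moved by over 1.5 times with the filter or with voom, since these change how many of them are tested. Without a filter it was 7 (main 4) for NRF2, 7 (3) for SNW1 knockdown in H460, 8 (5) for NRF2 against SNW1 and 7 (4) for NR0B1 against SNW1. With voom it was 7 for NRF2, 6 for SNW1, 8 for NRF2 against NR0B1 and 8 for NRF2 against SNW1. All of these voom counts but that for SNW1 include BTC, whose call carries no weight. With a filter at 5 FPKM it was 3 (5) for NR0B1, 3 for NRF2 against NR0B1, 3 for NRF2 against SNW1 and 2 for NR0B1 against SNW1. The EREG interaction reversed to 1.22 with a constant of 0.1 and to 2.55 with voom. Leaving out 1 library gave 8 to 10 calls in H2122, 3 to 4 for SNW1 and 4 to 5 for BPK29 against BPK9. BTC in H2122 also lost its call without a filter (adjusted p = 0.08) and at a common total (0.0555), and ERBB3 after BPK29 gained one at a common total (0.0435). HBEGF between BPK29 and BPK9 gained one with voom (0.0391), and ERBB3 between them without BPK9 replicate 2 (0.0427). Scaling by median ratios over the 6 H2122 libraries shifted the median of all genes by -0.14, and a common total shifted NRF2 against NR0B1 and against SNW1 by -0.11 each; in these comparisons no gene of the 10 changed direction or call under that scaling.

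The labels give no meaning to the replicate numbers, and same-numbered libraries did not all deviate together: they correlated at -0.305 to 0.283 in H460 and -0.0204 to 0.196 in the compounds. In H2122 they correlated at 0.0729 to 0.21, and libraries of different number at -0.189 to -0.00261, so every library there correlated best with its own number, a hint from the data and not from the design. With the replicate block, 10 genes were called in H2122, 4, 5 and 3 in the H460 knockdowns of NRF2, NR0B1 and SNW1, 10 in the interaction and 4 for BPK29, as without it. The planned distances to NR0B1 peaks were not run. Depth limits AREG, BTC, TGFA, ERBB3 and EREG in H460.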
